A study of Rattus norvegicus with 35 samples.

Results

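White blood cell markers among the microRNAs (miRNAs, short RNAs that repress messenger RNAs) were followed in rat liver: miR-150-5p, miR-142-3p, miR-142-5p, miR-342-3p, miR-342-5p and miR-223-3p. They were taken by name from the deposited table of raw read counts, where they are 6 of 763 mature miRNAs. All 6 had at least 1 read in every library and all 6 were among the 328 miRNAs abundant enough to be tested. The samples were livers of male Sprague-Dawley rats, aged 6 weeks, dosed by mouth daily with ketoconazole, an azole antifungal drug known for liver injury. The low dose was 10 mg/kg, the middle dose 30 mg/kg and the high dose 100 mg/kg, the controls received the vehicle, 0.5% methylcellulose, and dosing lasted 3, 7 or 14 days, with the liver removed 24 h after the final dose. Each of the 12 combinations of dose and day had 3 small RNA libraries, except the control of day 14 with 2, giving 35. Replicates are numbered in the labels, which do not state whether they are different rats, and the p-values below measure only the spread between these samples, which may be technical.

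Liver holds white blood cells in its sinusoids and tissue: resident macrophages (Kupffer cells), natural killer and other lymphocytes, and circulating granulocytes and monocytes. miR-150 is high in mature B and T lymphocytes, miR-142 is made across the blood cell lineages and little elsewhere, and miR-223 is high in granulocytes and monocytes. miR-342 lies in an intron of Evl, a gene for an actin regulator, and is found in lymphoid and myeloid cells. A miRNA hairpin is cut into a 5′ arm and a 3′ arm, and each arm, once loaded on an Argonaute protein, finds its messenger RNAs mainly through the seed, bases 2 to 8. Arms of a hairpin are made in equal numbers and differ afterwards in how long they last, so both arms of miR-142 and of miR-342 are described.

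RefSeq sequences, from a table on the rat assembly GRCr8, matched 5 of the 6 miRNAs. They are shown 5′ to 3′ with the seed in capitals, because the arms of each hairpin carry different seeds and so read different targets.
miR-142-3p: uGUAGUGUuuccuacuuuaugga
miR-142-5p: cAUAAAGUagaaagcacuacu
miR-342-3p: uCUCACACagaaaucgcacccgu
miR-342-5p: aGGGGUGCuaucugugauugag
miR-223-3p: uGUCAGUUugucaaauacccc
The 5 seeds were all distinct, and none was shared with another of the 693 rat mature miRNAs in that table, so no 2 of these 5 miRNAs fall into 1 seed family. The hairpins of miR-142 and miR-342 follow, with both arms in capitals, since the balance of their arms is one of the results below.
Mir142: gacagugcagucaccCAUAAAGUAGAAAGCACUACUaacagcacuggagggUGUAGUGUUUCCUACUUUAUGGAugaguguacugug
Mir342: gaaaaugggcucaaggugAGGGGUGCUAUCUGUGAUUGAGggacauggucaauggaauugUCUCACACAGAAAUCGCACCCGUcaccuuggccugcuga
In the RefSeq gene table the Mir142 gene lies within the span of Tspoap1, Mir342 within Evl and Mir223 within a long non-coding RNA gene, while Mir150 lies within none.

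Library depth was 2665943 to 9665416 counts (median 3758063). On the first principal component (46.2% of the variance) 14 libraries, the controls and the low dose on days 3 and 14, lay on one side. The other 21, the low dose on day 7 and the middle and high doses, lay on the opposite side, and no batch is named in the labels. Every comparison with control below that involves a group of the 21 therefore also compares these sides, and the treatment and the side cannot be told apart there. The hepatocyte miRNA miR-122-5p, the check of the tissue, stood between 32723 and 44676 CPM in the controls and between 23277 and 32183 CPM at the high dose. The sum of 6 hepatocyte miRNAs, this one included, overlapped, at 226912 to 309919 CPM in the controls and 239748 to 287535 CPM at the high dose. These 6 did not all change in the same direction, as given below. In bulk liver, fewer cells of a type and less RNA per cell cannot be told apart.

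Levels are given in CPM, the usual depth-scaled read count, with library sizes scaled by TMM (trimmed mean of M values). miR-142-5p was the most abundant of the 6, at a mean of 1655 CPM over the 35 libraries and rank 44 of 763. It was followed by miR-150-5p at 489 CPM and miR-142-3p at 266 CPM. The myeloid miR-223-3p had a mean of 66.3 CPM and miR-342-3p 42.7 CPM. miR-342-5p, the minor arm, had a mean of only 1.63 CPM, from 1 to 15 reads per library, so its values carry the largest counting error. Mature miRNAs are nearly equal in length, but ligation differs between sequences, so these ranks compare reads rather than molecules.

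The range over libraries was widest for the abundant arms of miR-342 and miR-142 and narrowest for miR-223-3p. Leaving miR-342-5p aside for its few reads, the highest library was 6.49 times the lowest for miR-342-3p and 5.44 times for miR-142-5p. The ratio was 3.43 for miR-150-5p, 2.62 for miR-142-3p and 1.98 for miR-223-3p. Low dose day 7 had the highest group mean of the 12 for all of the 6 except miR-342-5p. For miR-142-5p that mean was 3182 ± 452 CPM (SD, n = 3), followed by middle dose day 7 at 1937 ± 80.4 CPM (n = 3), and the libraries of these neighbours did not overlap. For miR-342-3p it was 88.6 ± 7.85 CPM (n = 3), followed by middle dose day 3 at 62.4 ± 14.0 CPM (n = 3), again without overlap. For miR-150-5p, miR-142-3p and miR-223-3p the low dose day 7 libraries overlapped those of the next group. The means of miR-142-3p were nearly equal, at 323.4 CPM there and 323.1 CPM in control day 14. How many of all miRNAs had their highest mean at low dose day 7 was not counted.

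Further down the order, the libraries of neighbouring groups separated only between low dose day 3 and low dose day 14 for miR-142-5p, and between middle dose day 7 and high dose day 14 for miR-342-3p. In the other 4 miRNAs all 11 pairs of neighbouring groups overlapped. How often neighbouring groups separate among all miRNAs was not counted. The lowest mean was that of high dose day 3 for miR-150-5p, 315 ± 29.6 CPM (n = 3), and for miR-142-3p. It was that of control day 7 for miR-142-5p, 956 ± 242 CPM (n = 3), and for miR-342-3p, 21.4 ± 6.69 CPM (n = 3). For miR-223-3p and miR-342-5p it was that of high dose day 7.

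**Figure D1:**
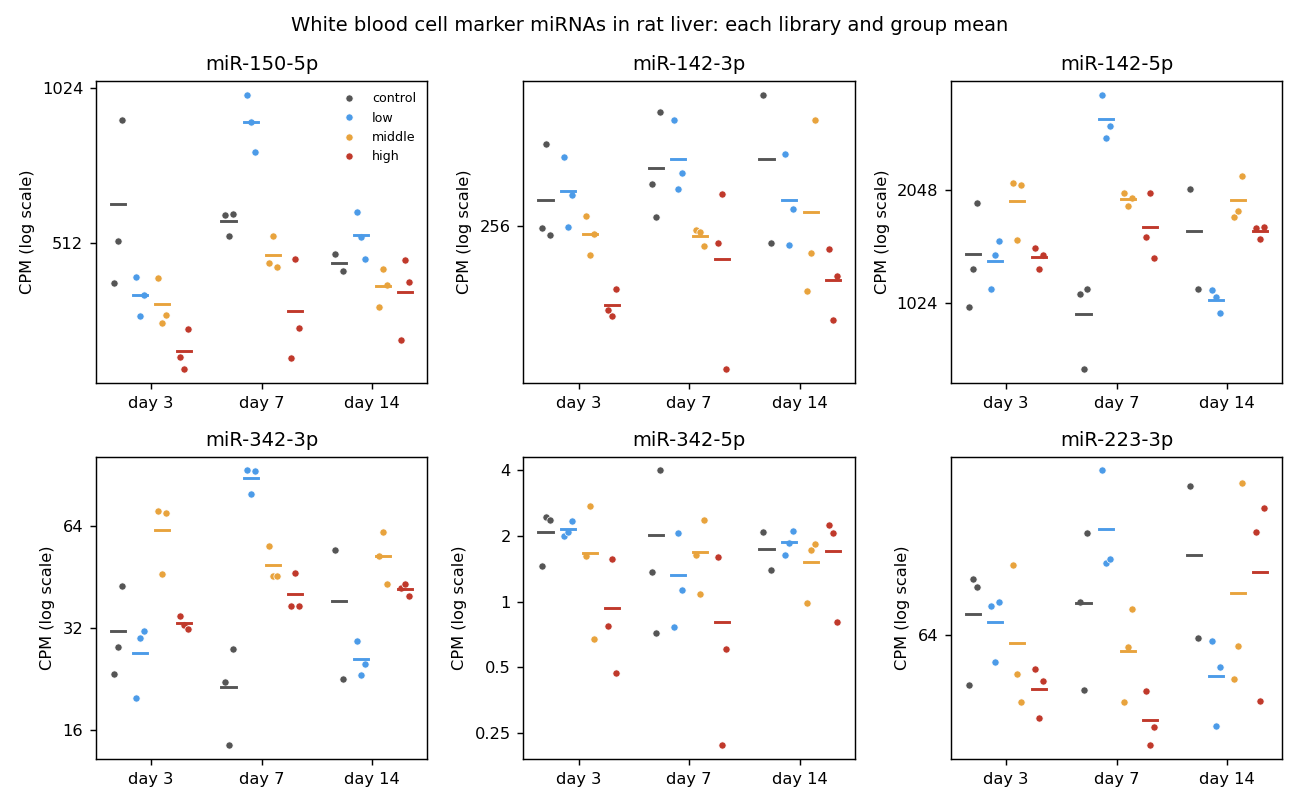
Level of each of the 6 miRNAs (y axis, CPM, log scale) by day of dosing (x axis); each point is 1 library, colours give the dose and bars the group mean. Low dose day 7 stands highest for miR-142-5p and miR-342-3p without touching any other group. At the high dose the points of miR-150-5p on day 3, between 290.0 and 348 CPM, lie below all control points. Of all miRNAs, 22.9% lay below the day 3 controls without overlap at that dose and day.

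The lymphocyte miRNA miR-150-5p fell at the high dose. On day 3 the high dose libraries held 307, 290.0 and 348 CPM against 428, 517 and 887 CPM in the controls. On day 7 they held 305, 476 and 349.6 CPM against 581, 529 and 581 CPM. All high dose libraries were below all control libraries on these 2 days, as they were for 22.9% of all miRNAs on day 3 and 29.9% on day 7. On day 14, at 331, 475 and 429 CPM against 486 and 451 CPM, the groups overlapped.

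The quasi-likelihood test of edgeR, adjusted by Benjamini-Hochberg over the 328 miRNAs, gave a log2 fold change ± SE of -0.96 ± 0.19 on day 3 (adjusted p = 0.000125). It was -0.58 ± 0.19 on day 7 (adjusted p = 0.00966) and -0.19 ± 0.21 on day 14 (adjusted p = 0.531). The average over days was -0.58 ± 0.11 (adjusted p = 4.38e-05), and 8 of the 9 high dose libraries lay below the control mean of their day. The day 7 call needed control day 7 replicate 1 (-0.45 without it) and high dose day 7 replicates 1 (-0.45) and 3 (-0.49), and was lost with no low-count filter (-0.37), while that of day 3 and the average held without any 1 library. Day 7 minus day 3 of the high dose effect passed the test for none of the 6 miRNAs (0% of all miRNAs). In it 2 of the 6 and 36 of the 328 had an unadjusted p under 0.05, and DESeq2 called none. Day 14 minus day 3 also passed for none of the 6 (0% of all miRNAs). For miR-150-5p it gave 0.77 ± 0.28 by edgeR (unadjusted p = 0.0103, adjusted p = 0.565). That was 1 of the 6 and 24 of the 328 under an unadjusted p of 0.05, and DESeq2 called none. So no difference between days was shown at the high dose.

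At the middle dose miR-150-5p also fell on average, by 0.34 ± 0.11 on the log2 scale (adjusted p = 0.00874), with all 9 libraries below the control mean of their day. On day 3 the middle dose libraries held 438, 357 and 369.8 CPM, a difference of -0.65 ± 0.19 (adjusted p = 0.00633), and the highest of them overlapped the lowest control. Day 7 minus day 3 of the middle dose effect passed for none of the 6 either (0.305% of all miRNAs higher, 0% lower), at an unadjusted p of 0.05 or by DESeq2. The day 3 call rested on control day 3 replicate 3, the library at 887 CPM: without it the value was -0.31.

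The arms of miR-142, the hairpin shared by blood lineages, did not move together. The 3′ arm fell at the high dose, while the 5′ arm passed the test there only on day 7, where it was higher. miR-142-3p stood at 191, 186 and 205 CPM in the high dose libraries of day 3, all below the controls at 254, 341 and 248 CPM (22.9% of all miRNAs). On day 14 it stood at 236, 184 and 215 CPM against 405 and 241 CPM, again lower without overlap (27.7% of all miRNAs). On day 7, at 241, 287 and 155 CPM against 297, 264 and 381 CPM, the libraries overlapped.

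For miR-142-3p the average over days was -0.53 ± 0.13 (adjusted p = 0.000526), with all 9 high dose libraries below the control mean of their day. Single days gave -0.53 ± 0.21 on day 3 (adjusted p = 0.0492), -0.46 ± 0.21 on day 7 (adjusted p = 0.0658) and -0.61 ± 0.23 on day 14 (adjusted p = 0.0436). The single-day calls were close to the threshold: that of day 3 was lost with library size alone (-0.56), with no low-count filter (-0.50) and on leaving out any 1 of 21 of the 35 libraries. The call of day 14 needed replicates 2 (-0.58) and 3 (-0.60) of its own group. Without control day 14 replicate 1, which left 1 control library on that day, the value was -0.34. The average passed without any 1 library and without day 7 (-0.57). At the middle dose the average of -0.26 ± 0.13 did not pass (adjusted p = 0.0743).

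miR-142-5p, the more abundant arm, was higher where the 3′ arm was not. Its high dose libraries of day 7 stood at 1537, 2007 and 1349.9 CPM, above all controls of that day at 1077, 678 and 1114 CPM, as were 26.2% of all miRNAs. The rise was 0.77 ± 0.21 (adjusted p = 0.00305). On days 3 and 14 the high dose differences were -0.03 ± 0.21 and 0.00 ± 0.24 with overlapping libraries, and the average over days was 0.25 ± 0.13 (adjusted p = 0.0916). At the middle dose it rose on average by 0.59 ± 0.13 (adjusted p = 0.000192), and all 9 libraries lay above the control mean of their day. On day 7 the middle dose libraries, at 2011, 1851 and 1949 CPM, were higher by 1.02 ± 0.21 (adjusted p = 0.000187). Without day 7 the middle dose average was 0.37 and no longer passed.

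miR-342-3p, the major arm of the hairpin in Evl, was higher at the middle dose. Its libraries stood at 71.1, 46.3 and 69.96 CPM on day 3 against 23.3, 28.0 and 42.6 CPM in the controls, and at 55.8, 45.5 and 45.7 CPM on day 7 against 22.2, 14.4 and 27.7 CPM. On both days all middle dose libraries lay above all controls, as they did for 22.9% of all miRNAs on day 3 and 28.7% on day 7. On day 14, at 52.1, 61.3 and 43.2 CPM against 54.5 and 22.6 CPM, the groups overlapped.

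These were rises of 0.99 ± 0.25 on day 3 (adjusted p = 0.00237) and 1.18 ± 0.26 on day 7 (adjusted p = 0.000352), with 0.45 ± 0.28 on day 14 (adjusted p = 0.269). Without control day 14 replicate 1, which left 1 control library on that day, the day 14 value was 1.10. The average was 0.88 ± 0.15 (adjusted p = 1.19e-05), with all 9 libraries above the control mean of their day. At the high dose the day 7 libraries, at 37.1, 46.4 and 37.2 CPM, were higher by 0.90 ± 0.26 (adjusted p = 0.00442). The high dose average, 0.37 ± 0.15 (adjusted p = 0.0390), was lost with library size alone (0.28), with a filter of at least 10 CPM in 3 libraries (0.33) and on leaving out any 1 of 16 of the 35 libraries, was 0.20 without control day 14 replicate 2 and was 0.10 without day 7.

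The minor arm miR-342-5p had 3, 7 and 2 reads in the high dose libraries of day 3 against 6, 11 and 10 in the controls. On day 7 it had 8, 1 and 2 reads against 6, 2 and 14. Its libraries overlapped between high dose and control on every day, and its average of -0.78 ± 0.35 (adjusted p = 0.0556) did not pass. No difference of miR-342-5p passed in any of the 25 comparisons, and at 1 to 15 reads a library only a large difference would be detectable.

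The myeloid miR-223-3p differed from control at no dose and on no day by the test. At the high dose its libraries of day 7, at 55.7, 48.6 and 50.9 CPM, lay below all controls of that day, at 69.5, 55.8 and 82.5 CPM, as did 29.9% of all miRNAs. The difference was -0.42 ± 0.20 (adjusted p = 0.0751). The high dose average was -0.25 ± 0.12, with a 95% interval that the model gives as -0.50 to 0.00 and an adjusted p of 0.0682. It passed when library size alone was used for scaling (-0.33, adjusted p = 0.0275).

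Each count of calls among the 6 is set here beside the share of all 328 miRNAs called in the same direction. At the high dose 1 of the 6 was higher on average (31.4% of all miRNAs) and 2 were lower (31.4%). On day 3 it was 0 higher (18.9%) and 2 lower (16.2%), on day 7 it was 2 higher (24.1%) and 1 lower (27.7%), and on day 14 it was 0 higher (22%) and 1 lower (13.4%). At the middle dose 2 were higher on average (32%) and 1 lower (29.9%). On day 3 it was 1 higher (20.1%) and 1 lower (18%), on day 7 it was 2 higher (27.1%) and 0 lower (23.8%), and on day 14 it was 0 higher (18.3%) and 0 lower (10.1%). With 6 miRNAs these counts are close to the shares over all miRNAs and are no result about the 6 as a group. Their median log2 fold change at the high dose average was -0.39, beside -0.04 over the 328. It was -0.17 at the middle dose average (-0.02 over the 328) and 0.02 at the low dose average (0.01). The 6 differed in sign at the high dose average, so that median is no change shared by all of them. In the middle dose comparison of day 14, none of the 6 passed an unadjusted p of 0.05 by edgeR, and DESeq2 called none.

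The low dose separated by day. On day 7 it had the highest group means of miR-142-5p, miR-342-3p and miR-150-5p. For miR-150-5p its libraries overlapped control day 3, where replicate 3 held 887 CPM. miR-142-5p stood at 3687, 2816 and 3044 CPM against 1077, 678 and 1114 CPM in the controls. miR-342-3p stood at 93.4, 79.6 and 92.9 CPM against 22.2, 14.4 and 27.7 CPM. miR-150-5p, at 995, 881 and 769 CPM against 581, 529 and 581 CPM, was also higher in every library than in any control, as were 29.9% of all miRNAs.

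The rise on day 7 was 2.04 ± 0.26 for miR-342-3p (4.10-fold, adjusted p = 8.71e-08), 1.73 ± 0.22 for miR-142-5p (3.33-fold, adjusted p = 5.45e-08) and 0.64 ± 0.19 for miR-150-5p (1.56-fold, adjusted p = 0.0047). The other 3 did not pass. miR-142-3p, at 371, 292 and 308 CPM, differed by 0.04 ± 0.21 from the controls, and miR-223-3p, at 96.5, 76.6 and 77.3 CPM, by 0.27 ± 0.20. Thus 3 of the 6 were higher (26.5% of all miRNAs) and 0 lower (18.6%). The rises of miR-342-3p and miR-142-5p held without any 1 library, while that of miR-150-5p needed control day 7 replicate 2 (0.48 without it) and the first control replicate of day 14 (0.46).

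On days 3 and 14 none of the 6 passed at the low dose, and edgeR called 0% of all miRNAs in either direction on these days. miR-150-5p on day 3, at 440.2, 369 and 405 CPM, gave -0.59 ± 0.19 (adjusted p = 0.357), and it passed (-0.79) without control day 3 replicate 1. At an unadjusted p of 0.05, 1 of the 6 passed on each of these days, beside 25 of the 328 on day 3 and 11 on day 14, and DESeq2 called none. The low dose average over days, in which miR-142-5p (0.35 ± 0.13, adjusted p = 0.0443) and miR-342-3p (0.42 ± 0.15, adjusted p = 0.0497) rose beside 16.5% of all miRNAs and none of the 6 fell (6.1%), was carried by day 7: without that day the values were -0.34 and -0.39 and did not pass. Both calls were also lost with DESeq2's size factors (0.33 and 0.40), library size alone (0.33 and 0.39) or no low-count filter (0.32 and 0.38), and on leaving out any 1 of 25 (miR-142-5p) or 29 (miR-342-3p) of the 35 libraries.

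The difference between days in the low dose effect was tested directly, as day 7 minus day 3. It passed for miR-342-3p, miR-142-5p and miR-150-5p, 3 of the 6 and all higher, beside 21.6% of all miRNAs, while 0 were lower (10.7%). Day 14 minus day 3 passed for none of the 6 (0% of all miRNAs), with 1 of them and 14 of the 328 under an unadjusted p of 0.05 and none of the 6 called by DESeq2. Among the controls themselves none of the 6 differed between days. Day 7 against day 3 gave -0.53 ± 0.21 for miR-142-5p (adjusted p = 0.133) and -0.54 ± 0.26 for miR-342-3p (adjusted p = 0.222), where 0.915% of all miRNAs were higher and 0.61% lower. At an unadjusted p of 0.05, 2 of the 6 and 71 of the 328 passed on day 7 against day 3, and 0 of the 6 and 29 of the 328 on day 14 against day 3, and DESeq2 called none of the 6 in either.

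**Figure D2:**
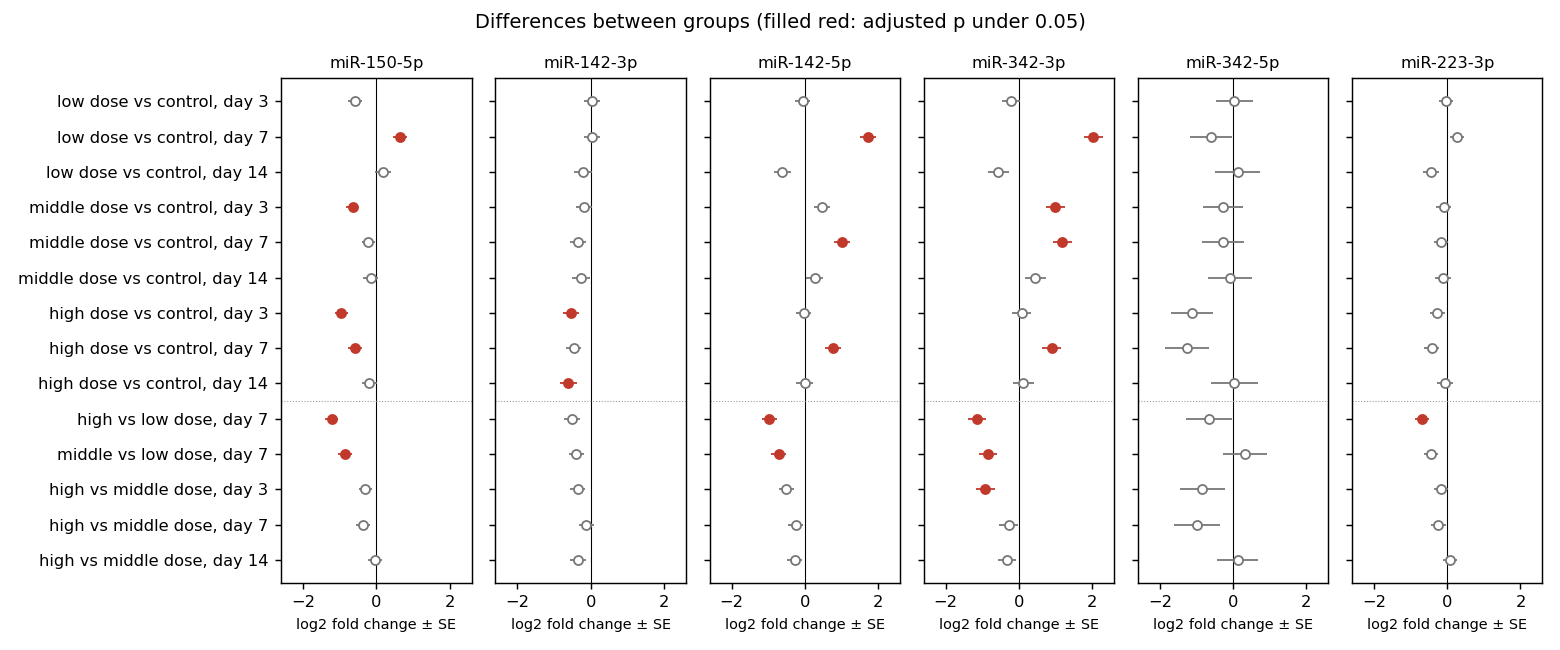
Log2 fold change ± SE (x axis) of each of the 6 miRNAs in the 14 comparisons between doses (y axis), with filled red points where the adjusted p was under 0.05. The rises of miR-142-5p (1.73) and miR-342-3p (2.04) at the low dose on day 7 are the largest, and between doses on day 7 every filled point is negative.

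Comparisons among the 21 libraries on one side do not cross the sides. On day 7, 4 of the 6 were lower at the high than at the low dose, beside 17.1% of all miRNAs, and 0 were higher (7.01%). miR-150-5p, at 305, 476 and 349.6 CPM against 995, 881 and 769 CPM, fell by 1.23 ± 0.19 on the log2 scale (adjusted p = 2.51e-05). miR-342-3p fell by 1.14 ± 0.25 (adjusted p = 0.00173), miR-142-5p by 0.96 ± 0.21 (adjusted p = 0.00177) and miR-223-3p by 0.69 ± 0.20 (adjusted p = 0.0112). In all 4, and in miR-142-3p (-0.51 ± 0.21, adjusted p = 0.0807), the high dose libraries lay below all low dose libraries, as they did for 31.4% of all miRNAs. The call of miR-223-3p was lost with no low-count filter (-0.44) and on leaving out any 1 of 17 of the 35 libraries, and that of miR-142-5p without high dose day 7 replicate 3 (-0.68). The median over all 328 was itself -0.20 in this comparison with TMM and -0.04 with DESeq2's size factors, beside -0.83 for the 6 with TMM. With TMM 29.1% of the calls over all miRNAs were higher, and 54.0% with DESeq2's size factors.

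The middle dose was lower than the low dose on day 7 for 3 of the 6, beside 7.93% of all miRNAs, and higher for 0 (2.13%). miR-150-5p fell by 0.86 ± 0.19 (adjusted p = 0.0034), miR-342-3p by 0.85 ± 0.25 (adjusted p = 0.0208) and miR-142-5p by 0.72 ± 0.21 (adjusted p = 0.0223), each with all middle dose libraries below all low dose libraries (23.5% of all miRNAs). Each call depended on single libraries: that of miR-150-5p was lost without middle dose day 7 replicate 3 (-0.69), that of miR-342-3p on leaving out any 1 of 11 of the 35 libraries and that of miR-142-5p any 1 of 19. With no low-count filter those of miR-342-3p (-0.74) and miR-142-5p (-0.61) were lost, and with DESeq2's size factors that of miR-142-5p (-0.63). Over all miRNAs 21.2% of the calls were higher with TMM and 48.6% with DESeq2's size factors.

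Between the high and middle doses only miR-342-3p on day 3 passed, 1 of the 6 lower (3.05% of all miRNAs) and 0 higher (3.96%). Its high dose libraries, at 34.7, 32.6 and 31.7 CPM, lay below the middle dose libraries at 71.1, 46.3 and 69.96 CPM, as did 11.3% of all miRNAs. The fall was 0.92 ± 0.25 (adjusted p = 0.0241). The call was lost without middle dose day 3 replicate 1 (-0.76) or 3 (-0.82) or any of the 3 high dose libraries of that day, with library size alone (-0.82) and with no low-count filter (-0.91). On days 7 (0% of all miRNAs in either direction) and 14 (0% higher, 0.915% lower) none of the 6 passed, at an adjusted p, at an unadjusted p of 0.05 or by DESeq2. The 95% interval of the difference on day 7 ran from -0.75 to 0.02 for miR-150-5p and from -0.80 to 0.23 for miR-342-3p.

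The balance of the arms, the 3′ arm's reads over the 5′ arm's within a library, does not depend on scaling between libraries. In miR-142 the 5′ arm was the larger in all libraries. The 3′ arm made up 20.3%, 21.3% and 11.6% of the hairpin's reads in the controls of day 3 and 21.6%, 28.1% and 25.5% in those of day 7. On day 7 it made up 9.14%, 9.38% and 9.18% at the low dose, 11.2%, 11.9% and 10.9% at the middle dose and 13.6%, 12.5% and 10.3% at the high dose. The share on day 7 was thus below that of every control of that day at all 3 doses. How many other hairpins separate in this way on a single day was not counted. The control of day 3 at 11.6% is the library that held 887 CPM of miR-150-5p. Over the study the share ran from 11.6% to 28.1% in the 14 libraries of the controls and the low dose on days 3 and 14, and from 9.14% to 14.2% in the other 21.

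In miR-342 the 3′ arm was the larger in all libraries. It made up 87.4% to 96.3% of the reads in the 14 libraries and 94.4% to 99.5% in the other 21, so in both hairpins the share of the major arm, 5′ in miR-142 and 3′ in miR-342, ran higher in the 21. The counts behind the minor arm are few: over the 3 low dose libraries of day 7 the 3′ arm had 1040 reads and the 5′ arm 16, against 234 and 22 in the 3 controls of that day.

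The exact permutation test within days (two-sided, 4000 arrangements, 0.5 added to each count, adjusted over 6 tests) compared the log2 ratio of 3′ to 5′ reads between each dose and control. For miR-142 the exact test gave -0.82 at the high dose (p = 0.0015, adjusted p = 0.0045), and the middle dose gave -0.88 (p = 0.001, adjusted p = 0.0045). For miR-342 the ratio was higher in the exact test, by 1.26 at the high dose (p = 0.006, adjusted p = 0.009) and 1.14 at the middle dose (p = 0.00325, adjusted p = 0.0065). The low dose averages of -0.42 for miR-142 (p = 0.140, adjusted p = 0.168) and 0.55 for miR-342 (p = 0.2225, adjusted p = 0.2225) did not pass the exact test. The high and middle doses each moved the ratio in 1 direction on all 3 days.

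Shifts of arm balance were common in these libraries. Of 96 hairpins with both arms tested, 60.4% passed at the high dose by the same test adjusted over all of them, 55.2% at the middle dose and 0% at the low dose, where 18.8% had an unadjusted p under 0.05. By day, miR-142 at the high dose gave -0.54 on day 3 with overlapping libraries, -1.28 on day 7 and -0.63 on day 14, both without overlap. The low dose gave 0.07 on day 3, -1.71 on day 7 and 0.38 on day 14. Overlap by day was not counted over the 96 hairpins, so separation on single days is not shown to be particular to miR-142. Without day 7 the high dose values were -0.59 for miR-142 and 0.79 for miR-342, with adjusted p of 0.08 and 0.102 by the exact test.

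**Figure D3:**
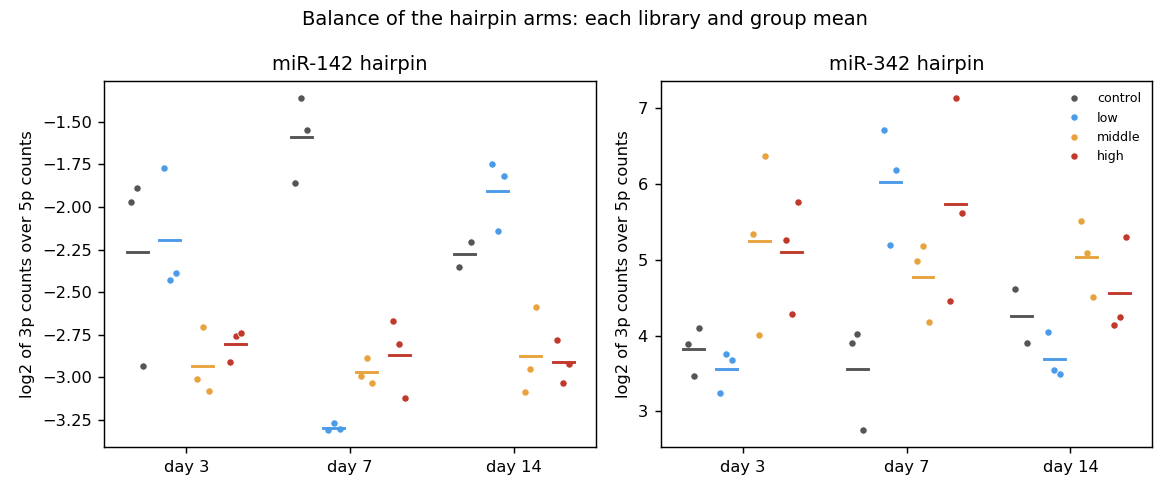
Log2 of 3′ arm reads over 5′ arm reads (y axis) for the hairpins of miR-142 and miR-342 by day (x axis); points are libraries, colours doses and bars group means. In miR-142 the middle and high doses lie below -2.5 on each day, as do the low dose on day 7 and 1 control of day 3; in miR-342 the same groups lie higher, with wide scatter from the few 5′ reads.

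Within groups, libraries also differed in how much of these miRNAs they held, and some of the 6 varied together. After the mean of its own group was taken from each library's log2 CPM, miR-142-5p and miR-342-3p, which come from different genes, had a Pearson r of 0.845 and a Spearman rho of 0.755 over the 35 libraries. Both p were 1e-05, the smallest that 100000 permutations can give (adjusted p = 0.000105 over 21 pairs). Without the 2 libraries farthest from the median of miR-142-5p r was 0.802. miR-142-3p and miR-223-3p gave r = 0.695 and rho = 0.734 (both p = 1e-05, adjusted p = 0.000105 by permutation), and r was 0.702 without 2 libraries. These p treat the 35 deviations as free of each other, although 12 group means were removed. Apart from the 6 and miR-451-5p, no miRNAs were paired. Whether such an r is usual among all miRNAs was therefore not tested.

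The arms of miR-142 were linked less closely, with r = 0.557 and rho = 0.562 (adjusted p = 0.00206 and 0.00315 by permutation), and those of miR-342 showed no relation that passed, at r = 0.153 and rho = 0.0443 (adjusted p = 0.469 and 0.874). miR-142-5p also varied with miR-223-3p, at r = 0.572 and rho = 0.574 (adjusted p = 0.00184 and 0.00245). miR-150-5p varied with miR-142-5p, at r = 0.576 and rho = 0.517 (adjusted p = 0.00182 and 0.00714), and with miR-342-3p, at r = 0.437 and rho = 0.406 (adjusted p = 0.0259 and 0.0498). Without 2 libraries these fell to r = 0.383 and r = 0.256, so the second relation rests on those libraries. The red cell miRNA miR-451-5p varied with miR-142-3p (r = 0.444, rho = 0.445, adjusted p = 0.0259 and 0.0275) and with none of the other 5 by this test. It is 1 of 4 red cell miRNAs listed and had a mean of 316 CPM, beside 2622 CPM for miR-486, which was not paired here. miR-451-5p alone is therefore no measure of the blood in a sample.

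**Figure D4:**
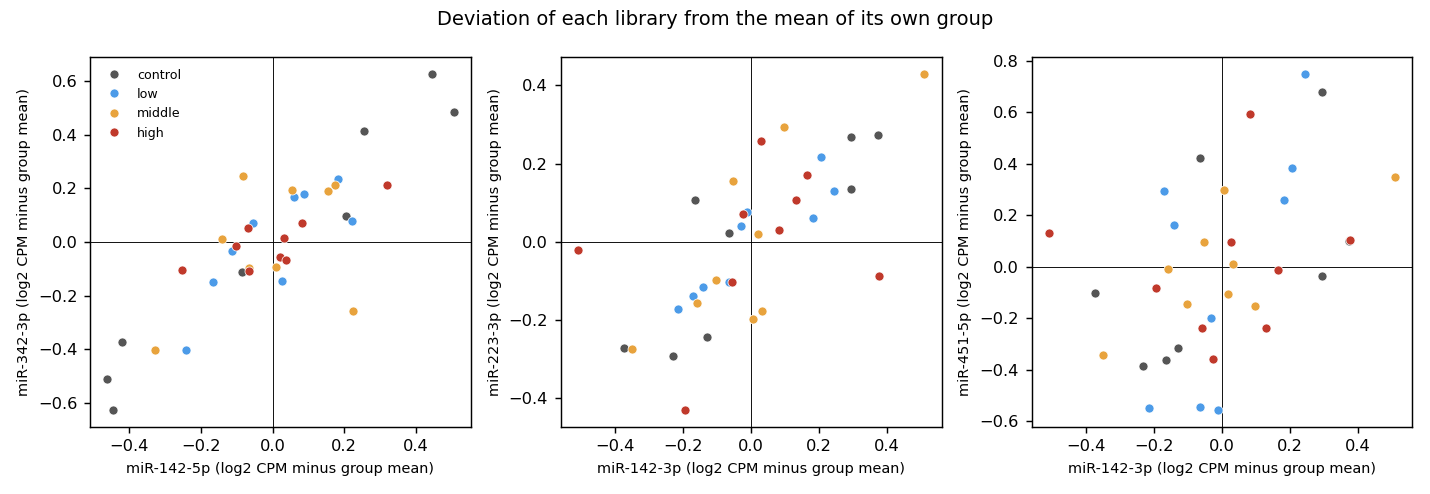
Deviation of each library from its group mean in log2 CPM, for miR-142-5p against miR-342-3p, miR-142-3p against miR-223-3p and miR-142-3p against the red cell miRNA miR-451-5p; each point is 1 of 35 libraries, coloured by dose. The first pair follows a line (r = 0.845), the second a looser one (r = 0.695) and the third is scattered (r = 0.444).

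Likeness of pattern over the 12 group means was measured as the root mean square difference in log2 CPM after centring, against 237 other miRNAs with a mean of at least 10 CPM. Among the 6, miR-142-5p and miR-342-3p were closest, at 0.16, and miR-142-3p was closer to miR-223-3p, at 0.19, than to its own 5′ arm, at 0.49. Outside them, miR-146a-5p, an NF-kappaB target that restrains innate signalling, was nearest to miR-142-5p at 0.17, where the median over the 237 was 0.53. miR-125a-5p was nearest to miR-342-3p at 0.23 (median 0.63). miR-872-5p was nearest to miR-142-3p at 0.083 (median 0.34), miR-23a-3p to miR-150-5p at 0.22 (median 0.44) and miR-151-5p to miR-223-3p at 0.16 (median 0.32). These are descriptions over group means that share libraries and scaling.

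A list of 20 other miRNAs linked to leukocytes and their activation, of which 16 were tested, was given the same comparisons. At the high dose average 5 of the 16 were higher and 5 lower, beside 31.4% of all miRNAs in each direction. At the middle dose average 5 were higher (32% of all miRNAs) and 2 lower (29.9%), and at the low dose on day 7 also 5 higher (26.5%) and 2 lower (18.6%). The counts at the high dose are those of miRNAs at large and are no result about the list. Their median log2 fold change was -0.09 at the high dose average and -0.17 at the low dose on day 7. The 4 most abundant went different ways. miR-181a-5p, which tunes T cell receptor signalling, fell at the low dose on day 7 by 0.52 ± 0.11 (adjusted p = 0.000376) and gave -0.12 ± 0.07 at the high dose average (adjusted p = 0.127). miR-125a-5p rose by 0.50 ± 0.13 at the high dose average (adjusted p = 0.00105), by 1.07 ± 0.13 at the middle dose average (adjusted p = 2.19e-08) and by 1.39 ± 0.21 at the low dose on day 7 (adjusted p = 2.95e-06). miR-29a-3p gave 0.20 ± 0.12 at the high dose average (adjusted p = 0.145), and miR-181c-5p fell there by 0.24 ± 0.08 (adjusted p = 0.00586). Many of these are also made by liver cells.

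Markers of other cell types were measured in the same libraries, where 31.4% of all miRNAs were higher and 31.4% lower at the high dose average. Both arms of endothelial miR-126a were lower at the high dose on average, 2 of 2, with a summed level of 28706 to 37855 CPM in the 8 controls and 18909 to 22701 CPM in the 9 high dose libraries. At the low dose on day 7, where miR-142-5p and miR-342-3p were highest, both arms of miR-126a were also lower, beside 18.6% of all miRNAs, with a sum of 24377 to 25945 CPM. Of the 4 red cell miRNAs 1 was higher and 1 lower at the high dose average, and their sum of 2262 to 4623 CPM overlapped the controls at 1521 to 4148 CPM. Of the 6 hepatocyte miRNAs 2 were higher and 4 lower there, of the 7 stellate and smooth muscle miRNAs 2 higher and 3 lower, and of the 6 bile duct miRNAs 1 higher and 2 lower. With lists this short, these counts are given beside that share and are no result about a cell type. The stellate and smooth muscle sum ran from 36620 to 49985 CPM in the controls and from 46113 to 60715 CPM at the high dose. Its largest part was miR-143-3p, at a mean of 44348 CPM. The bile duct sum ran from 1262 to 2201 CPM in the controls and from 1102 to 1968 CPM at the high dose. No marker of these lists was at 0 in any library. The part of these cell types in the differences of the 6 white blood cell miRNAs was not tested. The summed level of the 6 themselves was 1542 to 3147 CPM in the controls, 1825 to 2865 CPM at the high dose, 2204 to 3165 CPM at the middle dose and 4146 to 5244 CPM at the low dose on day 7, with miR-142-5p the largest part in every library.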

How the data were processed

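Small RNA libraries were made from total liver RNA with Illumina TruSeq Small RNA kits, per the labels' protocols. The authors deposited raw read counts per mature miRNA, with no normalization. The genome build was rn6 per the submitters' processing notes; the aligner, counter and annotation release were not given in the sources used here. Columns were matched to samples by name, and the 2 runs of middle dose day 14 replicates 2 and 3 were summed, so 37 columns gave 35 libraries. Replicates differed by more than counting noise (chi-square per degree of freedom at least 34.8 over 34 pairs), so none was counted as a copy.

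Rows with 0 counts everywhere (151 of 763) and those failing filterByExpr (minimum count 10, minimum total 15) were left out. TMM factors were computed for the 328 kept. The model, in edgeR 4.0.16 under R 4.3.3, had a mean for each group, all 35 libraries, 23 residual degrees of freedom and robust dispersions. The quasi-likelihood test was used with Benjamini-Hochberg adjustment within each of 25 comparisons and a threshold of 0.05. The SE is the absolute log2 fold change over the square root of F. Doses share the controls of their day. The median log2 fold change of all miRNAs is within 0.2 of 0 throughout. TMM scaling itself draws that median towards 0, so it is no check of the scaling. For log2 CPM a prior count of 2 was used.

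The 6 miRNAs, the marker lists and the comparisons were chosen with earlier results of these data known. The rule for naming takes the 6 always, the 4 most abundant of the other leukocyte list, the nearest patterns (3 per miRNA, of which the nearest is printed, with mean CPM of at least 10), miR-122-5p and, for the pairs, miR-451-5p. Alternatives were DESeq2's size factors and test (DESeq2 1.42.0), library size alone, other filters, single runs, averages without day 7, a replicate block, only the days compared and each library left out. On simulated counts of the 328 miRNAs, the high dose average recovered 77% of changes of 1.5-fold and 97% of those of 2-fold, with 8 calls among 128 unchanged. For the high dose on day 3 it was 57% and 87%. The simulation changed only the high dose libraries, with equal numbers up and down. It held no difference between days and no sides of the first principal component, so these rates need not hold in the data.

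Same-numbered libraries of different doses did not vary together: 14 of 51 such pairs had a correlation of deviations over 0.1, with a median of -0.0095. Genome coordinates are not printed because the gene table at hand is of another assembly than rn6. miR-150-5p is given by name only.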

Additional observations from a re-analysis of the deposited data

Results flagged for a closer look

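The effect of the low dose differed between day 7 and day 3 in 3 of the 6 miRNAs, by the interaction term of the edgeR model, and each was higher on day 7. The difference of the effects, in log2 fold change ± SE, was 2.25 ± 0.36 for miR-342-3p (adjusted p = 1.22e-05), 1.79 ± 0.30 for miR-142-5p (adjusted p = 1.73e-05) and 1.24 ± 0.26 for miR-150-5p (adjusted p = 0.000407). miR-142-3p, from the same hairpin as miR-142-5p, gave 0.00 ± 0.30 (adjusted p = 0.998). These 3 calls held in all alternatives run, each library left out included. The 3 low dose libraries of day 7 are also those that lay with the middle and high doses on the first principal component, and the dosing and that side cannot be told apart here. Groups had 2 or 3 libraries, so single libraries were not screened as outliers.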

How the results depend on the processing

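Of the single miRNA and arm results over all alternatives, 6622 kept their direction and side of the threshold, 191 lost a call, 47 gained one and 2 reversed. The reversals were those of miR-142-5p (-0.34) and miR-342-3p (-0.39) in the low dose average without day 7. The number of the 6 called in the low dose average, 2, was 0 with no low-count filter, scaling by library size alone or by DESeq2's size factors, control day 7 cut to 1 library (chosen after seeing the data) and without day 7, and 1 with the CPM filter or the second run alone. For the high dose on day 3, 2 became 1 with library size alone, no filter, the replicate block and the second run alone. For high against middle on day 3, 1 became 0 with library size alone, no filter and only the libraries of the days compared. For middle against low on day 7, 3 became 1 with no filter. With control day 7 cut to 1 library, the middle dose on day 7 went from 2 to 1 and the high dose on day 7 from 3 to 0. The cause was not tested.

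Leaving out each library gave counts from 0 to 1 for the low dose on day 3, 2 to 3 on day 7 and 0 to 2 on average; 2 to 3, 0 to 1 and 3 to 4 for the middle dose on days 3 and 14 and on average; 1 to 2, 2 to 4, 0 to 1 and 2 to 5 for the high dose on days 3, 7 and 14 and on average; 0 to 1 for high against middle on day 3; 2 to 5 for high against low and 0 to 3 for middle against low on day 7; and 0 to 1 for control day 7 against day 3. Leaving out 1 control of day 14 left 1 control library on that day. Without day 7 the arm balance averages lost their calls: -0.59 and -0.63 for miR-142 at the high and middle dose and 0.79 and 1.10 for miR-342. With the replicate block (numbers within a day), which the data do not show to pair the libraries (9 of 35 correlated best with their own number), the high dose average had 4 calls and day 3 had 1. Library size alone moved the median of all miRNAs to -0.18 in the middle dose on day 3 (38.7% of calls higher, against 52.8%), and to -0.19 and -0.15 in the middle and high dose on day 14 (37.9% against 64.5%, and 41.3% against 62.1%). Depth limits miR-342-5p most, at 1 to 15 reads.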
